A study of Mus musculus with 8 samples.

Results

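The cytotoxic granule genes and their drivers were followed in the spleens of mice with a tristetraprolin allele that lacks an AU-rich element. The set was fixed by name and held 10 genes: the granzymes Gzma, Gzmb, Gzmk and Gzmm, the pore-forming protein gene Prf1, the granule membrane gene Nkg7, the secreted products Ifng and Ccl5, and the transcription factors Tbx21 and Eomes. All 10 were found, as 11 transcripts among 23517 transcripts of 17738 gene symbols, since Eomes has a longer and a shorter transcript. The 11 transcripts passed the filter on low values, which asked for 0.5 FPKM on average across the 8 spleens.

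The 8 spleens came from male C57BL/6 mice of 8 to 12 weeks that received no treatment, 4 wild-type (WT) and 4 carrying TTPΔARE, and total RNA of each was sequenced. Tristetraprolin (TTP) is the RNA-binding product of Zfp36 and speeds the decay of mRNAs whose 3′ untranslated region (3′ UTR) holds AU-rich elements. The TTPΔARE allele has lost an AU-rich element of the Zfp36 3′ UTR, in every cell of the mouse; the labels state neither zygosity nor litter nor batch. The question put to the data was which cytotoxic mRNAs differed between the genotypes.

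Natural killer (NK) cells and cytotoxic T cells kill by releasing granules that hold granzymes, which are serine proteases, together with perforin, which opens the target cell membrane to them. The T-box factors T-bet, encoded by Tbx21, and Eomes drive this programme in both cell types. The same cells secrete interferon gamma, which activates macrophages, and the chemokine CCL5, which attracts T cells and monocytes. Ifng mRNA is among the cytokine mRNAs with AU-rich elements. On GRCm38, Gzma lies at chr13:113093824-113100981 beside Gzmk at chr13:113171630-113180965, and Gzmb lies at chr14:56258836-56262334. Chromosome 10 holds Gzmm at chr10:79689020-79695261, Prf1 at chr10:61297751-61304684 and Ifng at chr10:118441046-118445894. Chromosome 11 holds Tbx21 at chr11:97098007-97115331 and Ccl5 at chr11:83525778-83530518, while Nkg7 lies at chr7:43437138-43438246 and Eomes at chr9:118478186-118486132. In whole spleen, a lower level of such an mRNA cannot be told apart from fewer cells of the type that makes it.

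The AU-rich heptamer TATTTAT, the core that TTP binds, was searched on the sense strand of the members' 3′ UTRs in GENCODE M21 (GRCm38) because it is the sequence through which TTP could act on a member directly. Ifng held 4 heptamers in a 3′ UTR of 631 bases, Tbx21 held 1 in 701 bases, and 9 of the 11 transcripts held none. Of 21173 genes, 27.4% held at least 1 in their longest annotated 3′ UTR, with a median length of 1084 bases. The members were searched in the transcript matched to each row, which need not have the longest 3′ UTR. Among them only the longer Eomes transcript, at 1120 bases, exceeded that median, and the shortest, of Gzma, had 65 bases. The 9-base form TTATTTATT, which overlaps the heptamer, was in none of the 11 transcripts and in 7.58% of the 21173 genes. The sites are given below 5′ to 3′ in the sense of the mRNA, with the heptamer in capitals. They are matches of letters in the annotation, and binding was not measured.
Ifng, chr10:118445326-118445351 (+): tctaaaccTATTTATtaatatttaaa
Ifng, chr10:118445346-118445371 (+): tttaaaacTATTTATatggagaatct
Ifng, chr10:118445389-118445414 (+): caaagaagTATTTATagtaacaactt
Ifng, chr10:118445444-118445469 (+): atatgtgtTATTTATaatttctgtct
Tbx21, chr11:97098133-97098158 (-): ggggaggcTATTTATtgtagagagtg

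Promoters were searched for the T-box octamer TCACACCT, since both T-box factors are members, for the STAT-type motif TTCNNNGAA and for the AP-1 motif TGACTCA, on both strands of the 250 bases before the annotated start. RefSeq promoters (GRCm38.p6) matched 9 of the 10 genes, with 10 promoters, since Gzmm has a second one. The octamer was found in 1 of the 9 genes, Nkg7, starting 14 bases before the start and read on the opposite strand, against 1.12% of 32851 promoters. The STAT-type motif was in Nkg7, Ifng and 1 Gzmm promoter but not the other Gzmm promoter, against 7.02% of promoters. The AP-1 motif was in Gzmb, starting 58 bases before the start, against 4.46%. The Nkg7 and Gzmb promoters are shown because they carry the T-box and AP-1 matches, with every match in capitals. Factor binding was not measured.
Nkg7, chr7:43436888-43437137 (+): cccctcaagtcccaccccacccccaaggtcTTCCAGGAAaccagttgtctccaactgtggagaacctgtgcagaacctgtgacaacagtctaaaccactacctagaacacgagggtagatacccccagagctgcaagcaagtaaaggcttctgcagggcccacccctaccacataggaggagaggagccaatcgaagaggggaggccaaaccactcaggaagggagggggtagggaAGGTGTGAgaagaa
Gzmb, chr14:56262335-56262584 (-): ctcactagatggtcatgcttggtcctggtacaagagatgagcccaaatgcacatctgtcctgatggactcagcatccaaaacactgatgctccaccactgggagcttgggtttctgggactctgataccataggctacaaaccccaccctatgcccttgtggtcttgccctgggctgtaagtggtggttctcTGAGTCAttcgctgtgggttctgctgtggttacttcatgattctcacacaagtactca

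Values are FPKM, fragments per kilobase of transcript scaled to sequencing depth, as deposited by the authors, so levels of different genes can be set side by side per length. Sequencing depth was estimated at 28.3 to 32.2 M fragments per spleen, in a search limited to 20 to 40 M. Zfp36 stood at 37.9, 42.1, 44.9 and 36.4 FPKM in WT replicates 1 to 4 and at 57.5, 46.1, 55.1 and 52.9 FPKM in TTPΔARE replicates 1 to 4 (log2 0.39, limma adjusted p = 0.0323). The T cell gene Cd3e (19.5 to 23.5 FPKM) and the B cell gene Cd79a (160.9 to 206.0 FPKM) were present in every spleen. Of 6 B cell markers, 6 had log2 values below 0 and 2, Cd22 and Fcer2a, fell (list median -0.25). Across 16608 tested transcripts, 4.00% passed an adjusted p of 0.05, 2.01% upward and 1.99% downward, and the median log2 difference was 0.0031.

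No cytotoxic gene passed in the TTPΔARE spleens. By limma on log2(FPKM + 0.5), 0 of the 11 transcripts passed in either direction against the background of 4.00%, and 1 transcript, Prf1, had an unadjusted p under 0.05, as did 21.1% of all tested transcripts. In 0 of the 11 were the groups separate, which held for 12.5% of all transcripts (6.53% higher and 5.99% lower). With 1 transcript per gene, 9 of the 10 log2 values were above 0, Ifng being the exception, with a median of 0.19; 51.0% of all transcripts were above 0.

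In WT spleens the levels ran from Ccl5 through Gzma, Nkg7, Prf1, Tbx21, Gzmb and Eomes to Ifng, Gzmk and Gzmm. The WT means were 29.7 FPKM for Ccl5, 22.4 for Gzma, 15.3 for Nkg7, 5.19 for Prf1 and 3.85 for Tbx21. Gzmb followed at 2.04 FPKM, the longer Eomes transcript at 1.67, Ifng at 0.566, Gzmk at 0.539 and Gzmm at 0.511. The WT ranges of neighbours overlapped except between Nkg7 and Prf1, between Tbx21 and Gzmb and between Eomes and Ifng, which splits the order into 4 tiers.

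**Figure D1:**
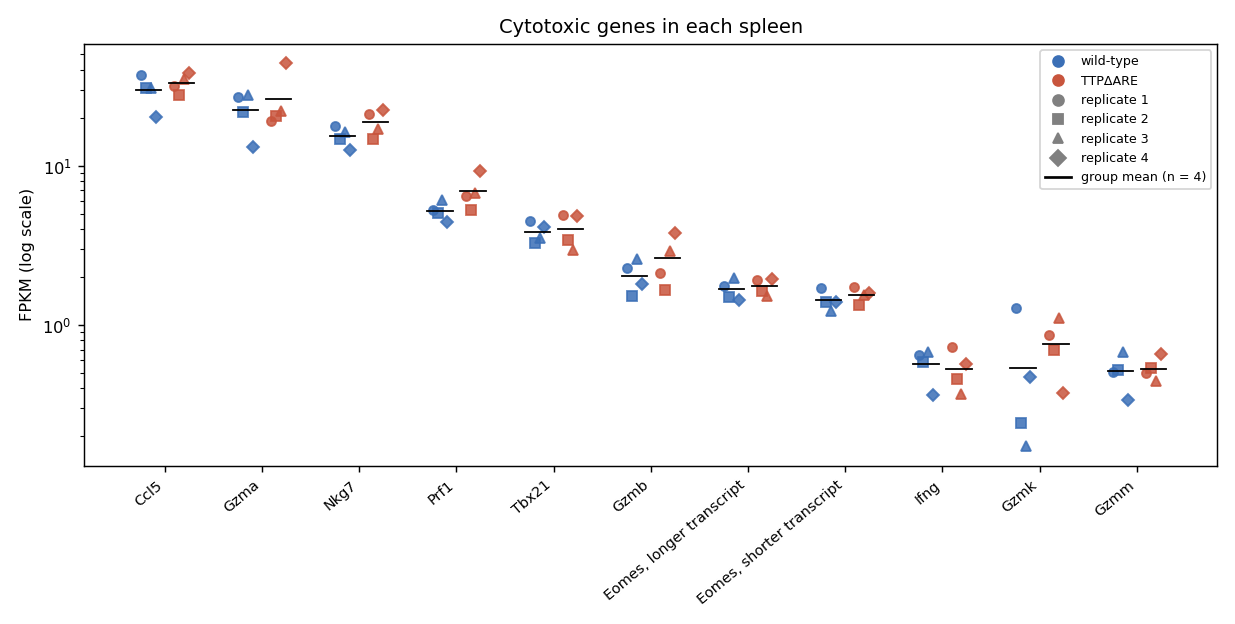
Level of each cytotoxic gene in each spleen in FPKM on a log axis, wild-type in blue and TTPΔARE in red, with a marker shape for each replicate and a bar for the group mean (n = 4). The groups overlap for every transcript, and TTPΔARE replicate 4 is the highest spleen for Gzma (44.0 FPKM), Gzmb, Prf1, Nkg7 and Ccl5.

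Gzma, the most abundant granzyme here and a tryptase, cutting after basic residues, was set apart by 1 spleen of each group. It stood at 26.9, 21.6, 27.8 and 13.2 FPKM in WT replicates 1 to 4 and at 19.0, 20.6, 22.1 and 44.0 FPKM in TTPΔARE replicates 1 to 4. WT replicate 4 was the lowest of the 8 and TTPΔARE replicate 4 the highest, while the other TTPΔARE spleens lay within the WT range. The group means were 22.4 ± 6.72 and 26.4 ± 11.8 FPKM (SD, n = 4 each; log2 0.20, 95% interval -0.40 to 0.80, limma adjusted p = 0.728). Without TTPΔARE replicate 4 the log2 value was -0.068, and without WT replicate 4 it was -0.026, so its sign rested on these spleens.

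Gzmb, the granzyme that cuts after aspartate and activates caspases, had the same highest spleen at a lower level. WT replicates 1 to 4 gave 2.27, 1.52, 2.58 and 1.80 FPKM, and TTPΔARE replicates 1 to 4 gave 2.11, 1.65, 2.92 and 3.79 FPKM. TTPΔARE replicates 3 and 4 lay above every WT spleen and the other TTPΔARE spleens lay inside the WT range. The log2 value was 0.26 (95% interval -0.17 to 0.70, limma adjusted p = 0.491), and 0.095 without TTPΔARE replicate 4. Of its near paralogs, Gzmc reached at most 0.0998 FPKM, Gzmf 0.0332 and Gzmd 0.0188 in any spleen; how reads shared among them were assigned is not known.

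Gzmk and Gzmm, the remaining granzymes, were near the lower limit of these libraries. Gzmk, typical of memory T cells, stood at 1.27, 0.242, 0.173 and 0.471 FPKM in WT replicates 1 to 4 and at 0.864, 0.696, 1.10 and 0.372 FPKM in TTPΔARE replicates 1 to 4. It did not follow the other granzymes, since WT replicate 1 was the highest spleen and TTPΔARE replicate 4 was below the other TTPΔARE spleens. At the estimated depth these values stand for about 5 to 37 fragments per spleen, and the WT coefficient of variation was 93.6% (log2 0.35, 95% interval -0.26 to 0.96, limma adjusted p = 0.519). The Gzmk log2 value was 0.64 without WT replicate 1, 0.18 without WT replicate 3, 0.64 at a pseudocount of 0.1 and 0.89 with an erythroid covariate, and did not pass in any of these.
Gzmm, a granzyme of NK cells, stood at 0.508, 0.521, 0.677 and 0.338 FPKM in WT and 0.496, 0.536, 0.442 and 0.651 FPKM in TTPΔARE replicates 1 to 4, about 14 to 27 fragments. The groups overlapped throughout (log2 0.035, 95% interval -0.22 to 0.29, limma adjusted p = 0.901). At this depth a small change in either gene was not detectable.

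Prf1, which encodes perforin, came closest to a difference. It stood at 5.25, 5.01, 6.08 and 4.43 FPKM in WT replicates 1 to 4 and at 6.43, 5.25, 6.70 and 9.20 FPKM in TTPΔARE replicates 1 to 4. TTPΔARE replicates 1, 3 and 4 lay above every WT spleen, and TTPΔARE replicate 2 lay among them. The means were 5.19 ± 0.683 and 6.89 ± 1.66 FPKM (SD, n = 4 each), 1.33-fold apart, with a log2 value of 0.36 (SE 0.140, 95% interval 0.050 to 0.67). The limma p was 0.0265 before and 0.173 after adjustment, and the log2 value was 0.22 without TTPΔARE replicate 4 and -0.098 with an erythroid covariate.

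Nkg7, a membrane protein of cytotoxic granules that takes part in their release, stood at 17.7, 14.7, 16.2 and 12.6 FPKM in WT and 21.0, 14.7, 17.1 and 22.3 FPKM in TTPΔARE replicates 1 to 4. TTPΔARE replicates 1 and 4 lay above the WT range and the other TTPΔARE spleens inside it. The log2 value was 0.28 (SE 0.131, 95% interval -0.0088 to 0.57, limma adjusted p = 0.250).

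The secreted products differed from each other in level and not in call. Ccl5 was the most abundant member, at 37.2, 30.8, 30.7 and 20.2 FPKM in WT and 31.4, 27.6, 34.8 and 38.4 FPKM in TTPΔARE replicates 1 to 4. WT replicate 4 was below the other 7 spleens, which overlapped (log2 0.17, 95% interval -0.18 to 0.52, limma adjusted p = 0.593, and 0.0016 without WT replicate 4). Ifng, the member with 4 heptamers in its 3′ UTR, stood at 0.644, 0.581, 0.679 and 0.360 FPKM in WT and 0.721, 0.457, 0.366 and 0.566 FPKM in TTPΔARE replicates 1 to 4. The lowest spleens were WT replicate 4 and TTPΔARE replicate 3 and the highest was TTPΔARE replicate 1. The log2 value of Ifng was -0.054 (95% interval -0.34 to 0.23, limma adjusted p = 0.863), from about 14 to 28 fragments per spleen.

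The T-box drivers had log2 values near 0. Tbx21 stood at 4.48, 3.29, 3.51 and 4.12 FPKM in WT and 4.88, 3.42, 2.93 and 4.85 FPKM in TTPΔARE replicates 1 to 4 (log2 0.037, 95% interval -0.29 to 0.36, limma adjusted p = 0.922). The TTPΔARE spleens gave both the highest and the lowest value of the 8. The longer Eomes transcript stood at 1.76, 1.50, 1.98 and 1.44 FPKM in WT and 1.93, 1.63, 1.51 and 1.93 FPKM in TTPΔARE replicates 1 to 4 (log2 0.053, 95% interval -0.16 to 0.27, limma adjusted p = 0.813). The shorter one ran from 1.22 to 1.71 FPKM in WT and from 1.32 to 1.72 FPKM in TTPΔARE (log2 0.088, limma adjusted p = 0.652). Both share most of their sequence, so the split of reads between them is uncertain.

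**Figure D2:**
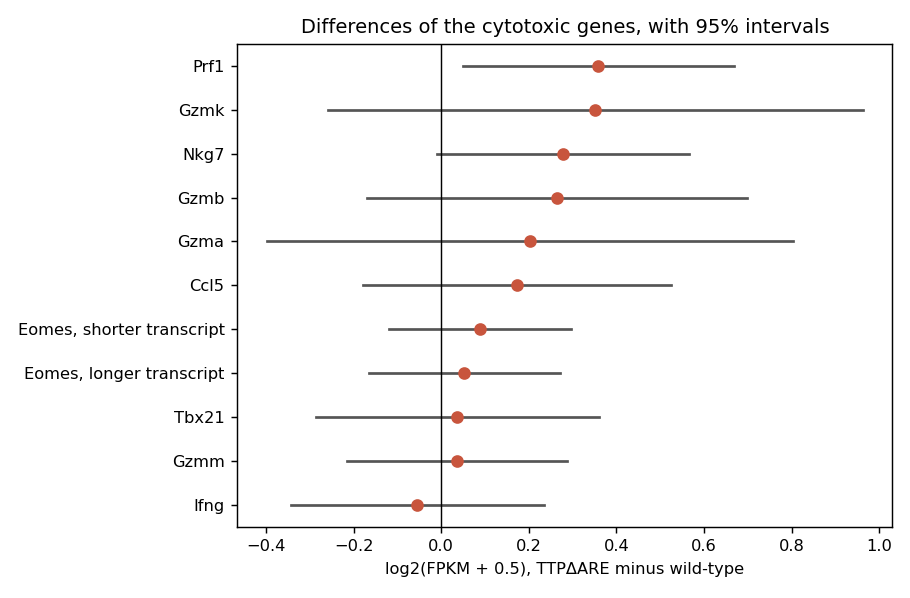
Difference in log2(FPKM + 0.5), TTPΔARE minus wild-type, of the 11 transcripts (points) with 95% intervals from limma (lines). The intervals of 10 transcripts cross 0, that of Prf1 runs from 0.050 to 0.67, and those of Gzma and Gzmk are the widest.

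TTPΔARE replicate 4 and WT replicate 4 lay at the ends of the range for many members. With 1 transcript per gene, TTPΔARE replicate 4 was the highest of the 8 spleens for 5 of the 10 genes and above the 8-spleen mean for 9, and WT replicate 4 was the lowest for 7 and above the mean for 1. The mean deviation over the members, in log2(FPKM + 0.5) from each gene's 8-spleen mean, was 0.15, -0.18, 0.015 and -0.32 in WT replicates 1 to 4. It was 0.11, -0.12, 0.032 and 0.32 in TTPΔARE replicates 1 to 4. TTPΔARE replicate 1, the second highest TTPΔARE spleen, was highest for Tbx21 and Ifng.

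NK cell markers moved with the same spleens, though not they alone. The summed level of 11 NK markers was 27.5 FPKM in WT replicate 4 and 36.9 to 41.4 FPKM in the other WT spleens, 64.9 FPKM in TTPΔARE replicate 4 and 37.8 to 40.7 FPKM in the other TTPΔARE spleens. Ncr1, the NK receptor NKp46, stood at 7.90, 7.79, 7.50 and 4.76 FPKM in WT and 7.12, 8.65, 8.63 and 13.7 FPKM in TTPΔARE replicates 1 to 4. All 11 markers were above their mean in TTPΔARE replicate 4 and 1 of 11 was in WT replicate 4. By limma 1 of the 11 passed, where 4.00% of all transcripts did: Klra8, an activating receptor of the Ly49 family (log2 0.80, adjusted p = 0.0499). A second Klra8 transcript did not pass and its groups overlapped (log2 0.74, limma adjusted p = 0.115). The list's mean log2 level differed by 0.27 (exact two-sided permutation p = 0.314). The summed CD8 T cell markers Cd8a and Cd8b1 ran from 23.5 to 28.5 FPKM in WT and from 26.2 to 34.0 FPKM in TTPΔARE, with WT replicate 4 the lowest and TTPΔARE replicate 1 the highest. The mean deviation of macrophage markers was lowest in WT replicate 4 (-0.35) and highest in TTPΔARE replicate 4 (0.25). Platelet, plasmacytoid dendritic cell and neutrophil markers were also lowest in WT replicate 4, but not highest in TTPΔARE replicate 4. T cell markers went the other way, at 0.079 and -0.20 in these spleens.

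**Figure D3:**
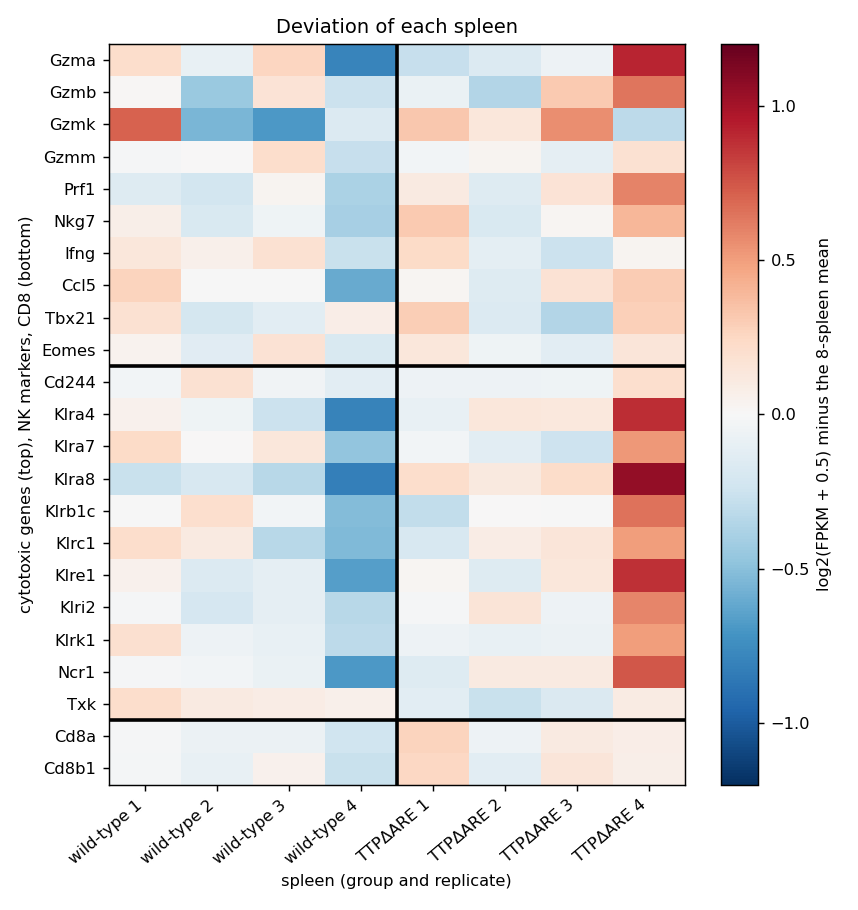
Deviation of each spleen (columns) from the 8-spleen mean in log2(FPKM + 0.5), red above and blue below, for the cytotoxic genes (top), NK cell markers (middle) and CD8 markers (bottom). TTPΔARE replicate 4 is above the mean for 9 of the 10 cytotoxic genes and all 11 NK markers, and WT replicate 4 is below it for most of both.

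Relative to the NK markers of the same spleen, 7 of the 10 members had values below 0. Each member's log2 level was taken minus the mean log2 level of the NK markers. That mean was itself 0.27 higher in TTPΔARE (exact two-sided permutation p = 0.314), which lowers all 10 values by the same amount. Prf1 was then 0.091 higher in TTPΔARE and Nkg7 0.011 higher, while Gzmb was at -0.0035, Gzma at -0.065 and Ccl5 at -0.095. Eomes stood at -0.21, Tbx21 at -0.23, Gzmm at -0.23 and Ifng at -0.32 by the same measure, and Gzmk at 0.084. By exact two-sided permutation tests over the 70 assignments, 0 of the 10 passed after adjustment over the 10 tests, with a smallest adjusted p of 0.762. The smallest unadjusted p was 0.171, for Gzmm and Ifng, where 0.0286 is the smallest that 4 against 4 spleens allow. Against T cell markers in place of NK markers the 10 values were above 0, from 0.030 for Ifng to 0.44 for Prf1 and Gzmk, and 0 passed. This denominator joined 8 T cell markers with Cd8a and Cd8b1. The 8 T cell markers were below 0 in 7 of 8 cases, with a median log2 value of -0.16, where 51.0% of all transcripts were above 0. By limma 0 of the 8 passed and 4 had an unadjusted p under 0.05, where 4.00% and 21.1% of all transcripts did. Cd8a and Cd8b1 were above 0, with a median of 0.18. The mean of the joined markers was lower in TTPΔARE, which raises all 10 ratios by the same amount.

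Other cell types, some of which could hold these mRNAs, gave the following values, whose part in the result was not tested. Of 8 mast cell and basophil markers, some of whose granules hold granzymes, 2 passed the filter on low values, and the summed level of those 2 was 1.07 to 1.65 FPKM in WT and 0.970 to 1.82 in TTPΔARE, with Mcpt8 at 0.598 FPKM or less. The 5 markers of plasmacytoid dendritic cells summed to 12.5 to 15.2 FPKM in WT and 16.9 to 19.5 FPKM in TTPΔARE, and 0 of 5 passed by limma, with 3 at an unadjusted p under 0.05. A second transcript of 1 of these markers, Ccr9, did pass (log2 0.40, limma adjusted p = 0.0323). Of all tested transcripts, 4.00% passed and 21.1% had an unadjusted p under 0.05. The 5 genes associated with NKT cells and type 1 innate lymphoid cells, which also carry granzymes and Ifng, summed to 32.0 to 36.1 FPKM in WT and 34.0 to 40.6 FPKM in TTPΔARE. Their 5 log2 values were above 0, as were 51.0% of all transcripts, with a median of 0.34. Of the 5, 3 had an unadjusted p under 0.05 and 0 passed by limma. The 6 tested megakaryocyte and platelet markers summed to 44.3 to 85.6 FPKM in WT and 61.2 to 101.2 FPKM in TTPΔARE. Their median log2 value was 0.55, 5 of 6 had an unadjusted p under 0.05 and 2 rose by limma. The 7 neutrophil markers had a median of 0.24, with 0 at an unadjusted p under 0.05. Among the marker lists, that of red cell precursors had the largest median log2 value, 1.20: its 16 genes summed to 6107 to 11347 FPKM in WT and 14699 to 22483 FPKM in TTPΔARE, and 8 of the 16 rose.

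Around the members, 5 genes of the pathway rose in TTPΔARE and 0 fell, among 83 tested in 7 lists of granule, release, death ligand, transcription factor, inducing cytokine, interferon gamma response and chemokine genes. That is 6.02% of the 83, where 2.01% of all tested transcripts were called higher, and with lists of 6 to 20 genes a single call exceeds that share. The lists were read with 1 transcript per symbol, while the calls and the 2.01% come from the fit of all transcripts. In a fit of 1 transcript per symbol, 239 of 12410 were called higher. Id2 and Lyst did not pass there (limma adjusted p = 0.0527 and 0.0505). The lists were chosen with earlier results of these data known, so the share is a description only. These genes sit upstream of the programme, in granule traffic or at a receptor for CCL5, and no granule protein was among them.

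Of 16 tested genes for inducing cytokines, their receptors and signalling, 2 rose, with a list median of 0.031. Il12a, the p35 subunit of interleukin-12, which induces interferon gamma in NK and T cells, stood at 0.847, 0.815, 0.994 and 0.953 FPKM in WT and 1.42, 1.60, 1.60 and 1.76 FPKM in TTPΔARE replicates 1 to 4. The groups were separate and 1.77-fold apart (log2 0.58, SE 0.0805, limma adjusted p = 0.00577). Il12b, the p40 subunit with which p35 forms interleukin-12, stood on the other side of 0 and did not pass (log2 -0.26, limma adjusted p = 0.225). Il2rb, the receptor chain shared by interleukin-2 and interleukin-15 and carried by NK and memory CD8 T cells, stood at 26.6, 27.7, 27.7 and 25.2 FPKM in WT and 32.5, 30.9, 34.8 and 32.7 FPKM in TTPΔARE. It rose 1.22-fold without overlap (log2 0.28, SE 0.0569, limma adjusted p = 0.0218), and unlike Gzma its TTPΔARE replicate 4 was not the highest. The call was lost without WT replicate 4, TTPΔARE replicate 3 or TTPΔARE replicate 4 (limma adjusted p = 0.0662, 0.0849 and 0.0680), where the log2 value was 0.25, 0.25 and 0.28. Those fits called 114, 94 and 118 of all transcripts higher, where the main fit called 333. Il12rb2, the signalling chain of the interleukin-12 receptor, stood at log2 0.37 and did not pass (limma adjusted p = 0.0511).

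Of 14 tested transcription factors Id2 rose, with a list median of 0.011. Id2, an inhibitor of E proteins needed for NK cells, stood at 42.9, 37.7, 33.6 and 28.7 FPKM in WT and 46.6, 44.3, 52.3 and 48.9 FPKM in TTPΔARE replicates 1 to 4. The groups were separate, with WT replicate 4 again the lowest spleen (log2 0.43, SE 0.107, limma adjusted p = 0.0483). With 1 spleen left out, the Id2 call was kept without WT replicate 1 and lost without any of the others, at log2 values of 0.33 to 0.47 (limma adjusted p = 0.0558 to 0.151). It was also lost with no filter (adjusted p = 0.0710), median-of-ratios scaling (0.0527), no variance trend (0.0634) and 1 transcript per symbol (0.0527), with log2 values of 0.42 to 0.43. With 1 spleen left out, 94 to 446 of all transcripts were called higher, where the main fit called 333. Ets1, a factor of lymphoid cells, stood at log2 -0.17 and did not pass (limma adjusted p = 0.154).

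Of 10 tested genes of granule transport and fusion Lyst rose, with a list median of 0.091. Lyst, the lysosomal trafficking regulator whose loss gives giant granules in beige mice, stood at 7.74, 10.2, 9.73 and 11.3 FPKM in WT and 11.4, 14.3, 14.1 and 13.5 FPKM in TTPΔARE replicates 1 to 4. The ranges were separate by a narrow margin (log2 0.44, SE 0.107, limma adjusted p = 0.0455). The Lyst call was kept when WT replicate 4 or TTPΔARE replicate 1 was left out and lost without any other single spleen, at log2 values of 0.34 to 0.47 (limma adjusted p = 0.0651 to 0.142). It was also lost with no filter (adjusted p = 0.0677), median-of-ratios scaling (0.0523), no variance trend (0.0595) and 1 transcript per symbol (0.0505), with log2 values of 0.43 to 0.44. Fits with 1 spleen left out called 94 to 446 of all transcripts higher, against 333 in the main fit. Rab27a, the GTPase that docks granules at the membrane, stood at log2 0.20 and did not pass (limma adjusted p = 0.113).

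Of 7 tested chemokines and receptors Ccr1 rose, with a list median of 0.20. Ccr1, a receptor for CCL5 on myeloid cells, stood at 2.72, 2.27, 2.29 and 2.16 FPKM in WT and 3.43, 4.22, 4.35 and 4.70 FPKM in TTPΔARE replicates 1 to 4. It was 1.77-fold higher with no overlap (log2 0.71, SE 0.0947, limma adjusted p = 0.00493), and passed when any 1 spleen was left out. Of 7 macrophage markers, 7 had log2 values above 0, as did 51.0% of all transcripts, with a median of 0.19. Their summed level overlapped between the groups, at 348.7 to 468.7 FPKM in WT and 440.4 to 545.2 FPKM in TTPΔARE. By limma 1, Emr1, rose (log2 0.36, adjusted p = 0.0354), where 2.01% of all transcripts were called higher. An unadjusted p under 0.05 was found for 2 of the 7 and for 21.1% of all transcripts. Their part in the Ccr1 value was not tested. Ccl4, a chemokine of the same cells as Ccl5, stood at 0.891, 1.14, 0.912 and 0.461 FPKM in WT and 1.18, 1.23, 1.31 and 1.34 FPKM in TTPΔARE, separate ranges that did not pass (log2 0.41, limma adjusted p = 0.126; 0.26 without WT replicate 4 and 0.24 without that spleen and TTPΔARE replicate 4).

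In the remaining lists 0 genes passed by limma, and their counts at an unadjusted p under 0.05 stand against 21.1% of all transcripts. Of 10 tested granule proteins and granzyme inhibitors, with 3 at an unadjusted p under 0.05, the tetraspanin Cd63 stood at log2 -0.23 and the serpin Serpinb6b at 0.20 (adjusted p = 0.139 and 0.210; list median 0.0043). Of 6 death ligands and receptors, with 0 at an unadjusted p under 0.05, Fas stood at -0.081 and Tnf at -0.10 (adjusted p = 0.687 and 0.712; list median -0.018). Of 20 interferon gamma receptor and response genes, with 3 at an unadjusted p under 0.05, the class II transactivator Ciita stood at -0.32 and the kinase gene Jak2 at 0.27 (adjusted p = 0.0874 and 0.0971; list median -0.023).

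**Figure D4:**
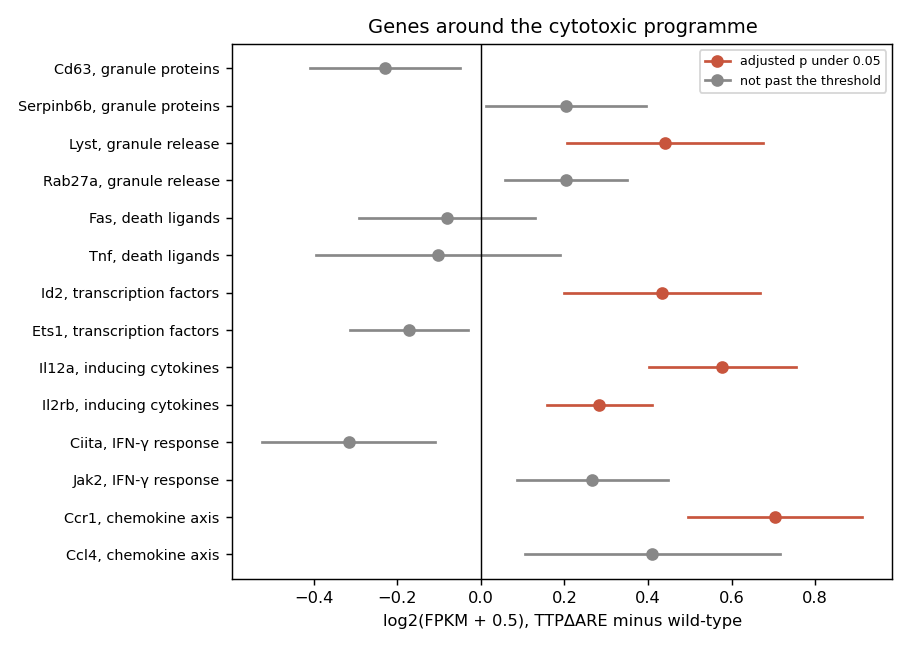
Difference in log2(FPKM + 0.5), TTPΔARE minus wild-type, with 95% intervals from limma, for the named genes of the 7 lists around the cytotoxic programme, red where the adjusted p is under 0.05. Ccr1 (0.71), Il12a (0.58), Lyst, Id2 and Il2rb are the 5 in red.

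The 5 calls were lost in both of the following fits. With the mean log2 level of the 16 erythroid markers as a covariate, the log2 value was 0.66 for Ccr1, 0.50 for Id2, 0.40 for Il12a, 0.31 for Lyst and 0.20 for Il2rb. None of the 5 passed in that fit (limma adjusted p = 0.505 to 0.896), in which 0 of all 16608 transcripts did. The mean level of these markers separated the groups, so this fit cannot tell it apart from genotype. With WT replicate 4 and TTPΔARE replicate 4 both left out, the 5 did not pass either (limma adjusted p = 0.0661 to 0.211), at log2 values of 0.62 for Ccr1, 0.56 for Il12a, 0.50 for Lyst, 0.33 for Id2 and 0.26 for Il2rb. Of all 16608 transcripts, 5 were called higher and 3 lower in that fit, where the main fit called 333 and 331. With the NK markers as a covariate Ccr1 and Il12a passed, at 0.60 and 0.56. Id2, Lyst and Il2rb did not (limma adjusted p = 0.0926 to 0.180), at log2 values of 0.33, 0.49 and 0.26. The fit with NK markers called 62 of all transcripts higher and 87 lower.

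The genes whose profile over the 8 spleens lay closest to the mean profile of the members were Unc119, Btnl6, Acer3, Rgs10, Myeov2 and Tyw5. The measure was the mean absolute difference in log2(FPKM + 0.5) deviation per spleen, over 11015 symbols outside the lists with a mean of at least 1 FPKM. It was 0.034 for Unc119, a chaperone of lipid-modified proteins, 0.049 for Btnl6, of the butyrophilin-like family, 0.054 for Acer3, an alkaline ceramidase, and 0.058 to 0.060 for the other 3. Unc119 stood at 11.0, 9.67, 10.3 and 7.77 FPKM in WT and 11.1, 9.55, 10.5 and 12.6 FPKM in TTPΔARE replicates 1 to 4, lowest in WT replicate 4 and highest in TTPΔARE replicate 4.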

How the data were processed

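Total spleen RNA of 4 WT and 4 TTPΔARE mice was sequenced. Values are FPKM per RefSeq transcript as deposited by the authors in 1 table; the submitters' processing notes name BWA and mm10, and neither the counting tool, annotation release nor use of strand was stated in those notes. Columns were matched to mice by name. Replicate numbers follow accession order and pair nothing. Each limma p-value sets a group difference against the spread between these mice, with variances moderated across transcripts. No counts were given, so depth was estimated from the steps of low FPKM values, over depths of 20 to 40 M fragments only. At 28.3 to 32.2 M fragments, 39.9% to 43.4% of values up to 0.5 FPKM were whole within 0.05 of a fragment. The median over the depths tried was 8.50% to 8.70%. Some Gzmm values fell on steps of 0.5, such as 18.5 and 25.5 fragments in WT replicates 1 and 3. Depths outside that range were not tried, so fragment numbers are approximate and could be off by a constant factor.

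The 16608 of 23517 transcripts that averaged 0.5 FPKM or more were compared by limma 3.58.1 (R 4.3.3) after a log2(FPKM + 0.5) transform (trend, Benjamini-Hochberg over all tested, threshold 0.05), after a check on simulated data. Log2 differences understate changes of low genes. Lists used 1 transcript per symbol. Ratios to markers used exact two-sided permutation tests. Figures and sequence searches used Python 3.11.15.

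The members and lists were chosen with earlier results of these data known. Named genes are every member, each called list gene with the 2 smallest p-values of each pathway list, and the 6 nearest profiles; Klra8, Ncr1, Il12rb2, Il12b, Ccr9, Cd22, Fcer2a, Emr1 and Mcpt8 were named after their values were seen. Alternatives were pseudocounts, filters, normalization, no trend, 1 transcript per symbol, an erythroid covariate, T cell markers as denominator and each spleen left out. A covariate of NK markers and a fit without WT replicate 4 and TTPΔARE replicate 4 were added after seeing the data.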

Additional observations from a re-analysis of the deposited data

Results flagged for a closer look

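Of 50 groups of 4 spleens checked for a single far value over 24 named genes, 2 were flagged, where chance flags about 1 in 20. Gzma in TTPΔARE replicate 4, at 44.0 FPKM, lay far from the 19.0 to 22.1 FPKM of the other TTPΔARE spleens. Its gap to the nearest spleen was 0.876 of the group's range. Ciita in WT replicate 4, at 17.8 FPKM, stood apart from the other WT spleens by 0.864 of the range.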

How the results depend on the processing

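No member passed in any of 20 alternatives; the lowest adjusted p was 0.0727, for Prf1 without TTPΔARE replicate 2. Transcripts called higher and lower numbered 333 and 331. They were 0 and 0 with the erythroid covariate, 62 and 87 with the NK marker covariate, 5 and 3 without both WT replicate 4 and TTPΔARE replicate 4, and 94 to 446 and 104 to 331 with 1 spleen left out; with 1 transcript per symbol 215 were lower. The covariate fits left out no spleen and no transcript, while the other fits named here did. The mean log2 level of the erythroid markers, less its 8-spleen mean, was at most 0.029 in WT and at least 0.11 in TTPΔARE. That covariate therefore cannot be told apart from genotype. The SE of Ccr1 was 0.0947 in the main fit and 0.182 with it. The cause of the changes was not tested.

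Log2 values that changed sign were as follows. With the erythroid covariate they were -0.30 for Gzma, -0.51 for Gzmb, -0.098 for Gzmm, -0.098 for Prf1, -0.076 for Eomes (longer transcript), 0.28 for Fas and 0.17 for Tnf. With the NK marker covariate they were -0.27 for Gzma, -0.055 for Ccl5, -0.015 for Eomes, -0.080 for Gzmm and -0.032 for Tbx21. Without both spleens they were -0.30 for Gzma, -0.072 for Ccl5, -0.037 for Eomes, -0.11 for Gzmm and -0.021 for Tbx21. Quantile normalization gave -0.014 for Gzmm. Leaving out 1 spleen gave -0.068 to 0.33 for Gzma, -0.052 to 0.11 for Gzmm, -0.15 to 0.024 for Ifng and -0.056 to 0.16 for Tbx21. Relative to NK markers, leaving out 1 spleen gave -0.18 to 0.047 for Gzma, -0.15 to 0.11 for Gzmb, -0.098 to 0.40 for Gzmk and -0.12 to 0.081 for Nkg7. A pseudocount of 0.1 gave 0.0059 for Gzmb and -0.014 for Nkg7, and one of 1 gave -0.012 for Gzmk. Relative to T cell markers the values were 0.26 for Ccl5, 0.14 for Eomes, 0.29 for Gzma, 0.35 for Gzmb, 0.12 for Gzmm, 0.030 for Ifng and 0.12 for Tbx21.

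No paired analysis was possible because the labels give the mice no replicate numbers. Depth limits Ifng, Gzmm and Gzmk most, at about 5 to 37 fragments per spleen.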
